A study of Rattus norvegicus with 8 samples.

Results

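Adcy1, Prkaca, Prkar2a and Gnaq are 4 genes of receptor signalling in the medial prefrontal cortex of adult rats, each represented by 1 probe among the 582 that the authors listed as changed out of the 15207 probes of the array. The members were found by gene name or gene ID in those lists, and all 4 stand in the list of higher probes, which holds 322. They were thus chosen by their JFLX values, p and flags on these 8 arrays. The list required a JFLX mean of at least 0.4 on the log2 scale, a p of at most 0.05 and a detected flag on at least 3 or 4 JFLX arrays, so the same comparison that chose these genes cannot test them. Their values are given here as a description. The 4 JFLX samples came from animals that had received fluoxetine, a serotonin reuptake inhibitor, at 10 mg/kg over the juvenile period, from P28 to P48, and the 4 control samples from animals given 5% sucrose as vehicle on those days. All were taken as whole medial prefrontal cortex at 6 months of age. Strain and sex are not given in the labels used here, and no label ties a sample to an animal of its own, so any spread quoted is that between samples. Descriptions of control replicates 2, 3 and 4 mention fluoxetine, but their titles and source names call them controls, and the titles were followed.

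Cyclic AMP is made from ATP by adenylyl cyclases, which receptors coupled to Gs stimulate and receptors coupled to Gi inhibit. It binds the regulatory subunits of protein kinase A and frees the catalytic subunits, which phosphorylate channels, receptors and transcription factors. Receptors coupled to Gq, a class with many members in cortical neurons, act instead through phospholipase C beta, inositol trisphosphate, calcium and diacylglycerol. Adcy1 encodes a neuronal adenylyl cyclase that calcium and calmodulin stimulate, and so is a point where calcium entry feeds into cyclic AMP. Prkaca encodes the catalytic subunit alpha of protein kinase A, Prkar2a its type II regulatory subunit alpha, and Gnaq the alpha subunit of Gq.

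The probes are shown because each gene rests on a single 60-base oligonucleotide, and the values that follow are those of these sequences alone, printed 5′ to 3′ in lower case with no part marked.
Adcy1: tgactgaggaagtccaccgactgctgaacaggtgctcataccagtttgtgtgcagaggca
Prkaca: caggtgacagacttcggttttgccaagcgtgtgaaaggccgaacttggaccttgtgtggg
Prkar2a: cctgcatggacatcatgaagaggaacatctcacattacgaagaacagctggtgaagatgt
Gnaq: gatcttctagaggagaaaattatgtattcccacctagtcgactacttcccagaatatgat
The deposited table places the Adcy1 probe on chromosome 14 from 87942243 to 87942302, the Prkar2a probe on chromosome 8 from 113824608 to 113824667 and the Gnaq probe on chromosome 1 from 219922722 to 219922781, all in ascending order. The Prkaca probe is placed on chromosome 19 from 25852087 to 25852229 in descending order, a span of 143 bases that holds 83 more than the probe. These positions come with no named genome build in the sources used here, and the exon or untranslated region each probe lies in was not looked up for want of an annotation of that build. Each of the 4 sequences has at least 1 reading frame without a stop codon on the strand printed, as do 94.7% of the 582 listed probes. Their GC content was 53.3% for Adcy1, 55% for Prkaca, 45% for Prkar2a and 38.3% for Gnaq, against a median of 45% over the listed probes. None of the 4 sequences was spotted under another listed probe name. Whether they also pair with transcripts of close relatives, such as Prkacb or Gna11, was not tested.

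For Adcy1, the deposited log2 values, which are set so that the control median is 0 at each probe, were 0.28, 0.51, 0.63 and 0.85 on the JFLX arrays of replicates 1 to 4, against 0.19, 0.06, -0.06 and -0.37 on the control arrays of replicates 1 to 4. The groups did not overlap, but the lowest JFLX array lay only 0.09 above the highest control array. The JFLX mean was 0.57 ± 0.24 and the control mean -0.05 ± 0.24 (SD, n = 4 each), a difference of 0.61 on the log2 scale or 1.53-fold.

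For Prkaca, the catalytic subunit, the values were 0.64, 0.70, 0.70 and 0.53 on the JFLX arrays and 0.00, 0.37, -0.08 and 0.00 on the control arrays. The JFLX arrays lay close together and above every control array, and only control replicate 2 came near them. The JFLX mean was 0.64 ± 0.08 and the control mean 0.07 ± 0.20 (SD, n = 4 each), a difference of 0.57 or 1.48-fold. In these deposited values Prkaca had, of the 4 genes, the smallest spread among JFLX arrays and the widest gap between the groups, at 0.16. On log2 intensity before normalization between arrays this order was reversed. There the JFLX SD was 0.499 for Prkaca, 0.495 for Gnaq, 0.289 for Adcy1 and 0.204 for Prkar2a, and the groups of Prkaca overlapped.

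For Prkar2a, the regulatory subunit, the values were 0.78, 0.55, 0.63 and 1.16 on the JFLX arrays and 0.76, -0.14, -0.14 and 0.14 on the control arrays. Control replicate 1 lay above 2 of the 4 JFLX arrays, so the groups overlapped. The JFLX mean was 0.78 ± 0.27 and the control mean 0.16 ± 0.42 (SD, n = 4 each), a difference of 0.62 or 1.54-fold. Without control replicate 1 the difference was 0.83.

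For Gnaq, the values were 0.33, 0.79, 0.28 and 0.38 on the JFLX arrays and 0.03, 0.32, -0.11 and -0.03 on the control arrays. Replicate 2 was the highest array in each group, and control replicate 2 lay above JFLX replicate 3, so these groups overlapped as well. The JFLX mean was 0.45 ± 0.23 and the control mean 0.05 ± 0.19 (SD, n = 4 each), a difference of 0.39 or 1.31-fold, the smallest of the 4. Without JFLX replicate 2 it was 0.28.

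**Figure D1:**
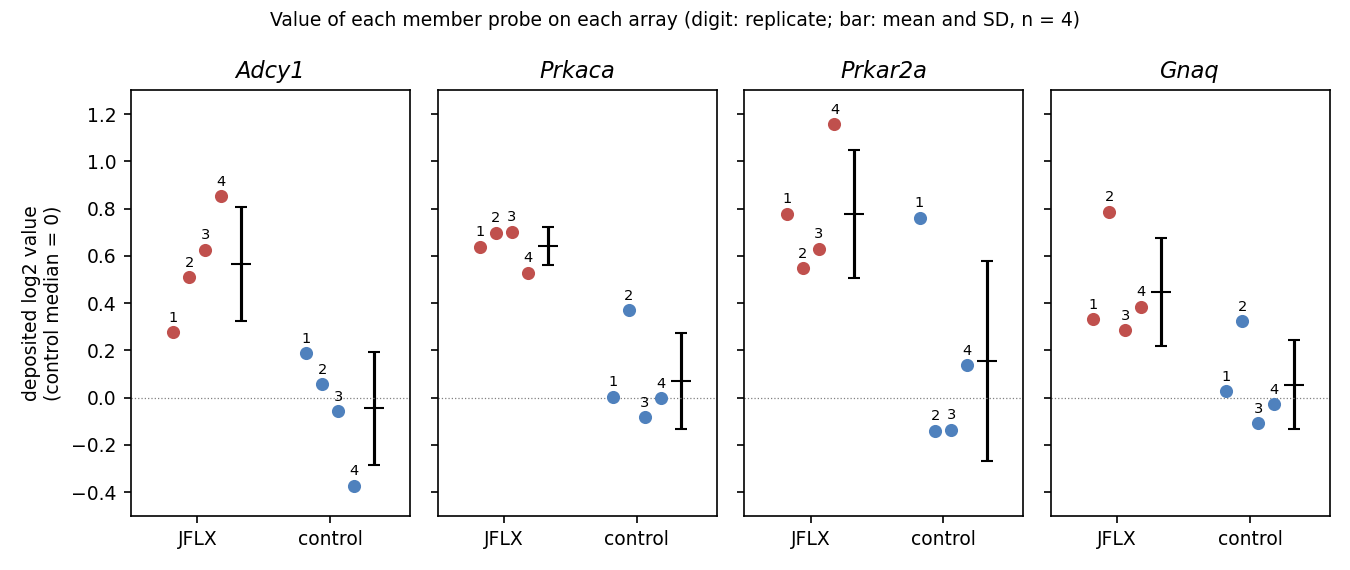
Deposited log2 value (vertical axis, control median at 0) of the probes of Adcy1, Prkaca, Prkar2a and Gnaq on each of the 8 arrays, JFLX left and control right, with the replicate number at each point and bars for the mean and SD of 4 arrays. The groups are apart for Adcy1 and Prkaca, and they overlap for Prkar2a, through control replicate 1, and for Gnaq, through control replicate 2.

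Groups without overlap and with JFLX higher were found for 2 of the 4 members, which the choice from the list of higher probes favours, and for 10.0% of all 15207 probes. In the limma fit across all probes, 1 of the 4 member probes passed an adjusted p of 0.05 in the higher direction, that of Prkaca, against 5.89% of all probes. Nothing is read from that count, since the lists were drawn from the same arrays. The limma adjusted p was 0.0336 for Prkaca, 0.0905 for Adcy1, 0.237 for Prkar2a and 0.256 for Gnaq, and the SE of the difference was 0.12, 0.17, 0.23 and 0.15 in that order of genes. The median difference was 0.59 over the 4 members, 0.57 over the 322 listed higher probes and 0.04 over all probes. Differences at least as large as that of Prkar2a were seen at 13.1% of all probes, and at least as large as those of Adcy1, Prkaca and Gnaq at 13.3%, 14.0% and 18.5%. Most of the 896 probes called higher over the whole array, 790 of them, met the authors' fold and p and yet are absent from their list, and carry no gene name here. The list also required detected flags, which are at hand for listed probes only. The shares of all probes given here may thus include undetected probes, whereas the 4 members were detected.

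The authors' deposited table gives p = 0.00195 for Prkaca, 0.0113 for Adcy1, 0.0386 for Gnaq and 0.0482 for Prkar2a, unadjusted, and a detected flag on all 4 arrays of both groups for each member. Prkar2a thus lay just inside the limit on p. The highest p among the listed higher probes in the authors' deposited table was 0.0499, and p for the probes just outside was not given there. Gnaq had the JFLX mean nearest to the limit of 0.4 among the members, at 0.45 in the authors' deposited table. The lowest JFLX mean in the list of higher probes was 0.402, and the nearest mean below the limit, among unlisted and unnamed probes that would meet the p, was 0.399.

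Before normalization between arrays the groups were less separate. By label, the columns of background-subtracted intensity are tied to a group but not to a replicate number. From high to low, Adcy1 had 106, 88.6, 78.0 and 65.7 on JFLX arrays, against 75.3, 73.1, 53.8 and 48.9 on control arrays. Prkaca had 253, 229, 228 and 119 on JFLX arrays, against 212, 146, 144 and 120 on control arrays. Prkar2a had 28.1, 26.9, 23.2 and 20.6 on JFLX arrays, against 27.7, 17.7, 16.7 and 13.0 on control arrays. On the raw scale 3 JFLX arrays of Adcy1 and of Prkaca, but 1 of Prkar2a and of Gnaq, exceeded every control array.

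Gnaq had raw intensities of 52.0, 40.3, 39.3 and 23.0 on JFLX arrays, against 43.9, 31.7, 30.1 and 25.1 on control arrays. The lowest JFLX value of Prkaca and of Gnaq was below all 4 controls, and for each of the 4 genes the lowest JFLX value came from 1 array that was dim throughout. Its median intensity over the 582 listed probes was 32.5, against 57.3 to 63.5 on the other JFLX arrays and 36.7 to 51.0 on the control arrays. The spacing of the members' values matches this dim array to JFLX replicate 4, whose values the normalization between arrays thus raised most. Log2 intensity gave differences of 0.43 for Adcy1, 0.39 for Prkaca, 0.44 for Prkar2a and 0.21 for Gnaq. Each is lower than the deposited difference by 0.18, the same constant at every listed probe, which for Gnaq is nearly as large as the raw difference.

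**Figure D2:**
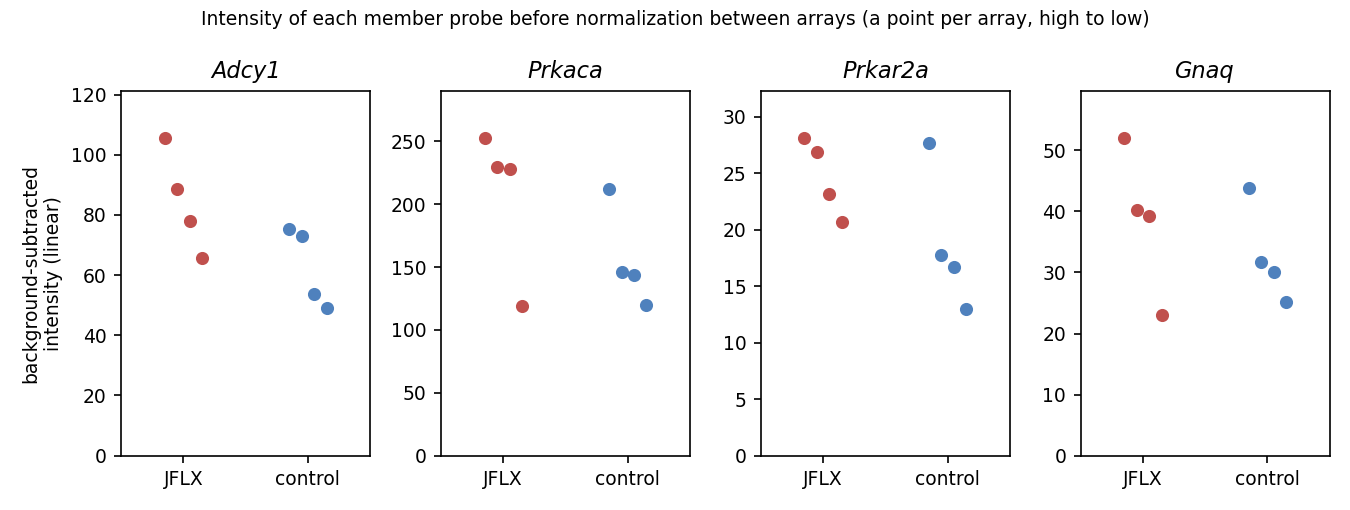
Background-subtracted intensity (vertical axis, linear, from 0) of each member probe before normalization between arrays, 1 point per array, ordered high to low within JFLX (left) and control (right). Prkaca and Gnaq each have 1 JFLX array below all 4 controls, at 119 and 23.0.

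In the deposited values the 4 members did not follow one order of arrays. JFLX replicate 4 was the highest JFLX array for Adcy1 and Prkar2a and the lowest for Prkaca, whereas JFLX replicate 2 was the highest for Gnaq. On the raw scale JFLX replicate 4, the dim array, was the lowest JFLX array for all 4 members, at 65.7 for Adcy1 and 20.6 for Prkar2a. The order of arrays thus depends on the normalization. Among the controls, replicate 2 was the highest for Prkaca and Gnaq, and replicate 1 for Adcy1 and Prkar2a. Prkaca and Gnaq were the most alike pair, with a mean absolute difference of 0.13 over the 8 arrays, and Prkar2a and Gnaq the least alike, with 0.40.

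The catalytic and regulatory subunits of protein kinase A are partners in one holoenzyme, so their values were also set against each other within each array. Prkaca minus Prkar2a was -0.14, 0.15, 0.07 and -0.63 on the JFLX arrays and -0.76, 0.51, 0.05 and -0.14 on the control arrays of replicates 1 to 4. The mean was -0.14 ± 0.35 in JFLX and -0.08 ± 0.53 in control (SD, n = 4 each). The groups overlapped throughout, and the difference between the 2 means, -0.05, was far smaller than the spread in either group. With these 8 arrays an unequal change of the 2 subunits as large as that spread could also go unseen. The smallest change that they could show was not computed.

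The genes whose values came nearest to each member over the 8 arrays, by mean absolute difference among 546 other listed names, are given as likeness alone, and sharing a group difference brings names near by itself. Nearest to Adcy1 were Casc3, of the exon junction complex, at 0.08, Rims4, a protein of the presynaptic RIM family, at 0.08, and Gfod1 at 0.09. Nearest to Prkaca were Phospho2 at 0.09, the non-muscle myosin Myh9 at 0.09 and Dpp6, an auxiliary subunit of A-type potassium channels, at 0.09. Nearest to Prkar2a, and less close, were the POU-domain factor Pou3f4 at 0.14, the retinoblastoma-like protein Rbl2 at 0.17 and Rnf24 at 0.17. Nearest to Gnaq were the transcription factor E2f6 at 0.08, Myh9 at 0.09 and the trans-Golgi protein Tgoln2 at 0.10. Over all 546 names the median distance ran from 0.32 for Prkaca to 0.42 for Prkar2a.

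The annotation of the deposited table was not used to find the members, but they were put together by function. Shared terms of signalling thus partly restate that choice. No term was shared by all 4 genes. Adcy1, Prkar2a and Gnaq carry the term plasma membrane, which is given to 15 of the 316 annotated listed genes, 11 in the higher and 4 in the lower list. Prkaca and Prkar2a share protein amino acid phosphorylation, given to 13 genes (11 higher, 2 lower), and protein serine/threonine kinase activity, given to 12 (11 higher, 1 lower). Adcy1 and Prkar2a share intracellular signaling cascade, given to 13 (11 higher, 2 lower). Prkar2a and Gnaq share signal transduction, given to 18 (12 higher, 6 lower), and cytoplasm, given to 38 (24 higher, 14 lower). Over all listed names 302 were higher and 245 lower. Each of these terms was picked through members of the higher list, so nothing is read from its split.

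A list of 293 genes of cyclic AMP and Gq signalling places the members among their partners. Names were available for listed probes only, and 17 of the 293 genes have one, the 4 members and 13 others. Of the 17, 3 passed the limma threshold in the higher and 2 in the lower direction, against 5.89% and 0.355% of all probes. Since names exist only where the authors had already called a change, these counts are no evidence of a direction. The median difference of the 17 was 0.51, against 0.42 over all listed names and 0.04 over all probes.

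Among receptors that raise cyclic AMP, the PACAP receptor Adcyap1r1 was at 0.56, 0.89, 0.36 and 0.72 on the JFLX arrays and at -0.01, 0.01, 0.18 and -0.19 on the control arrays, with no overlap. It was higher by 0.64 ± 0.14 (SE, n = 4 per group, limma adjusted p = 0.0384), though it passed in only 2 of the 15 other settings tried. The prostaglandin receptor Ptger2 differed by -0.49 ± 0.17 (SE) and did not pass, and it was detected on 2 of the 4 JFLX arrays. Sstr4, a somatostatin receptor coupled to Gi, differed by 0.51 ± 0.16 (SE) without passing.

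Of the 29 Gq-coupled receptors on the pathway list, 3 are named, all in the list of lower probes. Over all 547 listed names 245 were lower. Of the 3, 1 passed the threshold, Galr2, against 0.355% of all probes in the lower direction. Nothing is read from this split, and receptors outside the pathway list were not searched for. The galanin receptor Galr2 was at -0.94, -0.74, -0.58 and -0.60 on the JFLX arrays and at -0.22, 0.21, 0.14 and -0.14 on the control arrays. Its first listed probe was lower by 0.71 ± 0.14 as fitted (SE, limma adjusted p = 0.0204), and all 5 of its listed probes, which carry the same sequence, passed. The other 4 spots differed by -0.91, -0.81, -1.15 and -0.95, so the first listed was the smallest of the 5 in size. That first probe passed in 7 of the 15 other settings. The size of its difference is uncertain because it was detected on only 2 JFLX arrays at that probe. The orexin receptor Hcrtr1 differed by -0.54 ± 0.20 (SE), with detection on all 8 arrays and no overlap, and did not pass. The vasopressin receptor Avpr1a was detected on 4 control arrays and on 0 JFLX arrays, and did not pass (limma adjusted p = 0.202). No fold is given for it, because the controls' mean signal lay below the weakest signals flagged as detected on the JFLX arrays.

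Besides Gnaq, the listed G protein subunits were Gnai2, the alpha subunit of an inhibitory G protein, at 0.48 ± 0.15 (SE), and Gna12, the alpha subunit of another G protein class, at 0.57 ± 0.18. Neither passed, and a second Gna12 probe stood at 0.66 ± 0.19 without passing either. As with Prkaca and Gnaq, the top control value of both genes was that of replicate 2, at 0.42 for Gnai2 and 0.44 for the first Gna12 probe. The pathway list holds 16 phosphodiesterases, 12 genes of the protein kinase C family and 29 regulators such as RGS proteins and receptor kinases. Of each, 0 are named in the authors' lists, and their values were not analysed here. Family members outside the pathway list were not searched for.

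Atf2 is on the list as a transcription factor that binds cyclic AMP response elements, and whether cyclic AMP acts on it here was not tested. It was at 1.11, 0.98, 1.23 and 0.55 on the JFLX arrays and at -0.07, 0.07, 0.25 and -0.11 on the control arrays. The groups did not overlap, and the gene was higher by 0.93 ± 0.17 (SE, limma adjusted p = 0.0132), the largest positive difference of the 17, and passed in 12 of the 15 other settings. Among the listed genes of phospholipase C and inositol trisphosphate, Plcd4 differed by -0.50 ± 0.19 (SE) and did not pass. It encodes a delta-class enzyme, not one of the beta class through which Gq acts. The inositol trisphosphate receptor Itpr2 passed in the lower direction (limma adjusted p = 0.0168) and did so in 9 of the 15 other settings, but it was detected on 0 JFLX arrays, and no fold is given for the same reason as for Avpr1a. Among calcium effectors, the kinase Camk2a at 0.56 ± 0.19 and the calcineurin subunit Ppp3r1 at 0.63 ± 0.16 did not pass.

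**Figure D3:**
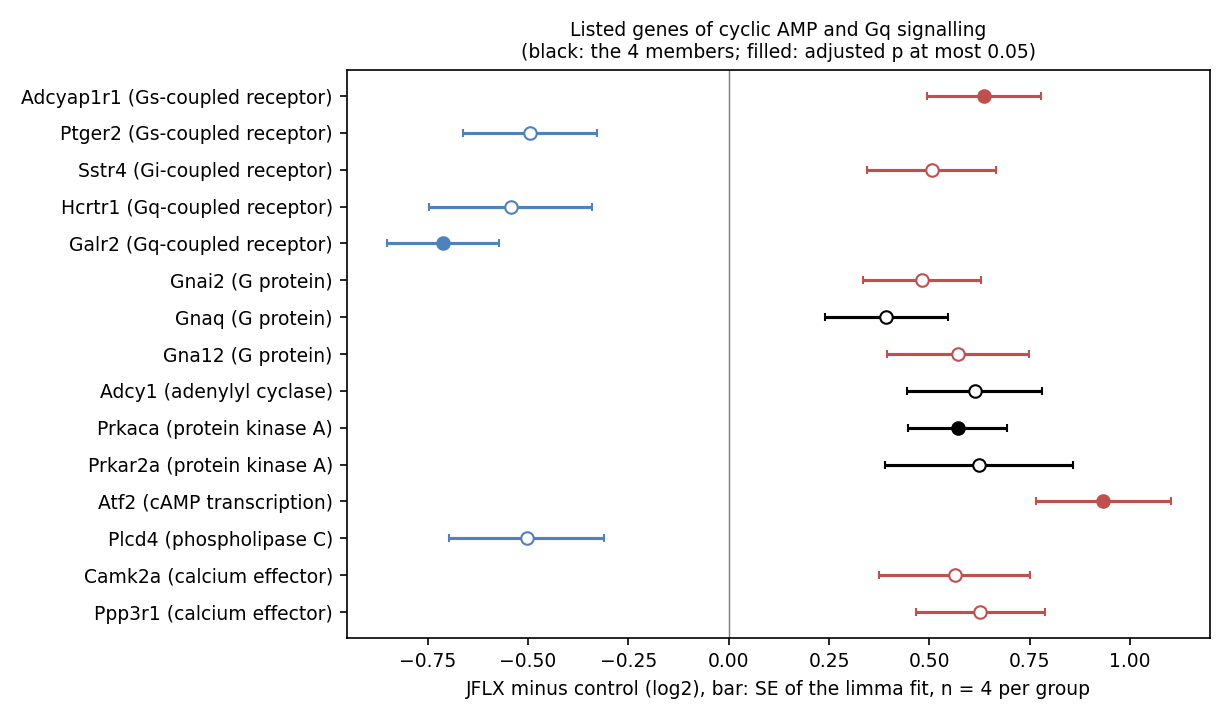
JFLX minus control on the log2 scale (horizontal axis, bars for the SE of the limma fit, n = 4 per group) for the 15 listed genes of the pathway that were detected on at least 1 JFLX array, by role from receptors to calcium effectors. The 4 members are black, filled points passed an adjusted p of 0.05, and Gnaq at 0.39 is the smallest of the positive differences.

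In bulk tissue, fewer cells of a type and less RNA per cell cannot be told apart. Of 66 markers of cell types, 6 are named in the lists, and 0 passed in the higher and 2 in the lower direction, against 5.89% and 0.355% of all probes. As for the pathway, names exist only where a change had already been called, and nothing is read from these counts. Camk2a, counted among the 6, marks excitatory neurons, and the other listed marker of these cells, Neurod2, differed by -0.46 ± 0.15 (SE) without passing. The interneuron channel Kcnc1 at 0.50 ± 0.14 and the endothelial Pecam1 at 0.68 ± 0.25 did not pass. The astrocyte enzyme Glul was lower by 0.51 ± 0.11 (SE, limma adjusted p = 0.0362), with JFLX values of -0.61 to -0.29 and control values of -0.12 to 0.13. The platelet gene Ppbp passed in the lower direction (limma adjusted p = 0.0370) and was detected on 0 JFLX arrays. Glul and Ppbp each passed in 4 of the 15 other settings. The other 60 markers, among them all of those for oligodendrocytes and microglia, were not analysed here, and the part of cell composition in the members' values was not tested.

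Promoters were searched for the cyclic AMP response element as a description of the members' sequences, apart from the array values. RefSeq promoter sequences of the build GRCr8, from 250 bases before to 50 after the annotated start, were matched by gene ID for 3 of the 4 members, Adcy1, Prkaca and Gnaq. The full element TGACGTCA was in 0 of the 3, and in 1.91% of all 27457 promoters of that length. Its half-site TGACG, searched on both strands and also matched within any full element, occurred in 22.0% of all promoters. It was found 2 times for Prkaca, which 5.21% of all promoters reach or exceed, 1 time for Gnaq and 0 times for Adcy1. The matches are printed with their flanks along the gene's strand, with the half-site or its reverse complement in capitals.
Prkaca, 193 bases before the start: gtctgcaactcgCGTCActcatccaggag
Prkaca, 79 bases before the start: ggactgcgggggCGTCAcggacagaggac
Gnaq, 28 bases before the start: tgagctcgtcccTGACGcgcgcccgggcg
In GRCr8 the Prkaca windows lie on the minus strand at chr19:41083366-41083394 and chr19:41083252-41083280, and the Gnaq window on the plus strand at chr1:222852413-222852441. The CCAAT box, searched as CCAAT on both strands, was found 2 times for Prkaca and 0 times for Adcy1 and Gnaq, and in 37.7% of all promoters. The GC box GGGCGG, likewise searched on both strands with overlaps allowed, was found in all 3, with 7 matches for Adcy1, 3 for Prkaca and 2 for Gnaq, and in 34.9% of all promoters. A match of letters is a description of the sequence and does not show a bound site.

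The member differences stayed positive under each setting in which they were recomputed, from 0.20 for Gnaq with arrays centred on their 75th percentile to 0.83 for Prkar2a without control replicate 1. Such centring lowered all differences by the same constant. The member differences kept their sign since that constant was smaller than each of them. The centring left 0.42 for Adcy1, 0.38 for Prkaca and 0.43 for Prkar2a, with 0 members past the limma threshold. Prkaca passed in 3 of the 15 other settings, Prkar2a in 1, without control replicate 1 (limma adjusted p = 0.0454), and Adcy1 and Gnaq in 0. The Prkaca call was lost when any 1 of JFLX replicates 1, 2 and 3 or control replicates 1, 3 and 4 was left out, with limma adjusted p from 0.0860 to 0.105. Over all other settings the limma adjusted p of Prkaca ran from 0.00889 without control replicate 2 to 0.797 with quantile normalization. The limma adjusted p of Adcy1 ran from 0.0728 without JFLX replicate 1 to 0.497 with quantile normalization. Centring each probe on the control median by itself narrows the control arrays. Their SD over all probes was 0.35 to 0.52, against 0.64 to 0.74 on JFLX arrays. Quantile normalization forces the same spread on all arrays and can so distort the group comparison, and nothing is read from its loss of calls.

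**Figure D4:**
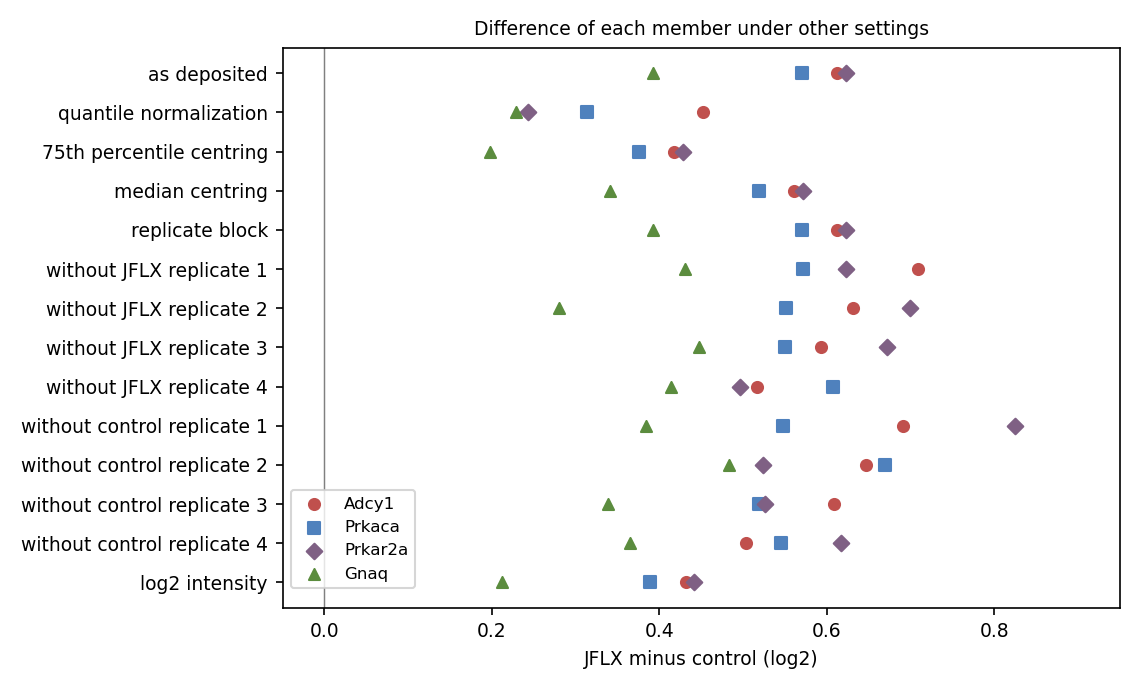
JFLX minus control on the log2 scale (horizontal axis) of the 4 member probes, 1 row of points for the values as deposited and for each other setting. All points lie above 0, and Gnaq is the lowest in every row. The values with quantile normalization, 75th percentile centring, median centring and raw log2 intensity lie to the left of those as deposited.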

How the data were processed

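Cy3-labelled RNA, 500 ng per sample, was hybridised to custom Agilent rat arrays on 1 slide, per the labels' protocols and the read-me sheet, which places the groups in separate blocks of array positions. Slide position and treatment cannot be told apart. The deposited table of log2 values has 15207 probes, 0 missing values and a control median of 0 at each probe, and no source used here states how arrays were normalized. The authors' lists hold background-subtracted intensity, log2 group means, an unadjusted p-value and counts of detected flags, per the file headers. In each list 16 per-array columns were not used. Intensity columns were assigned to groups only, apart from the dim JFLX array, which was matched to replicate 4 by its values.

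Differences were fitted with limma 3.58.1 in R 4.3.3 (lmFit, eBayes, two-sided, Benjamini-Hochberg adjustment over all probes, threshold 0.05), and the code was tested on simulated arrays. The deposited values carry no probe brightness, so no filter on dim probes was applied. Python 3.11.15 and pandas 2.3.3 served for tables. Of the 582 listed probes, 551 were named by gene ID in RefSeq (GRCr8). For genes with several listed probes, the first was used. The text names the members, listed genes of the pathway and marker lists, and the 3 names nearest each member. Members and lists were chosen with earlier results of these data known. The number of arrays limits the precision.

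Replicate numbers are shared between the groups. Deviations from the group means correlated between same-numbered arrays at -0.04, 0.40, 0.12 and -0.28, so the numbers were not taken to pair samples.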

Additional observations from a re-analysis of the deposited data

Results flagged for a closer look

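Among 44 groups of 4 arrays of pathway and marker genes, 4 single values stood apart from the other 3 arrays by Dixon's test, where chance gives about 1 in 20, or 2.2. None belonged to Adcy1, Prkaca, Prkar2a or Gnaq. For Camk2a, JFLX replicate 4 was low at 0.085 (gap 0.853 of the group's range) and control replicate 2 high at 0.28 (gap 0.859). For Kcnc1, control replicate 2 was low at -0.26 (gap 0.896), and for Pecam1, control replicate 4 was low at -0.79 (gap 0.830).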

How the results depend on the processing

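As fitted, 950 probes passed, 896 higher and 54 lower, with 1 member and 5 pathway genes. Quantile normalization gave 0 probes, 0 higher, 0 lower, 0 members and 0 pathway genes. It forces the same spread on control arrays, which the control-median centring had narrowed, and on JFLX arrays, so this loss is no fair check of the calls. Leaving out 1117 unlisted probes with the fold and p of a listed one gave 6 probes, 6 higher, 0 lower, 0 members and 0 pathway genes, and by construction raises the other adjusted p-values. With arrays centred on their 75th percentile there were 221 lower probes, 0 members and 2 pathway genes, with 682 higher, and centring on the median gave 0 members. The 75th percentile centring lowered every difference by the same constant, which by itself gives fewer higher and more lower calls. Trend and robust gave 0 lower probes, 0 members and 1 pathway gene. The replicate block gave 21 lower probes, 0 members and 2 pathway genes, and left all 4 differences as they were; not every array correlated best with its own number. Leaving out single arrays gave 780 to 907 probes, 742 to 875 higher, 19 to 62 lower, 0 to 1 members and 2 to 5 pathway genes. The lower count was smallest, at 19, with control replicate 3 left out. It was 23 when JFLX replicate 1 was omitted, and omitting control replicate 2 or 4 gave 32 or 35. Prkaca still passed when JFLX replicate 4 or control replicate 2 was omitted, and Prkar2a in its place when control replicate 1 was. By size, Prkaca moved beyond its replicate spread with quantile normalization (0.31), 75th percentile centring (0.38) and log2 intensity (0.39), and Prkar2a with quantile normalization (0.24). The cause was not tested.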
